A study of Mus musculus with 18 samples.

Results

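The genes described here encode the semaphorins and their plexin and neuropilin receptors, the ephrins and Eph receptors, the Slits and Robo receptors, and the netrins and Unc5 receptors. Members were picked by gene symbol, with no threshold on a measured difference, although the families themselves were proposed with earlier results of these data known. Of the 15386 genes in the deposited table of library-scaled counts (CPM, the count a gene would have in a library of standard size), 51 belong to these families, and 48 of those were among the 14309 genes with enough counts to be tested. The cells were MPC3, a prostate cancer cell line of the mouse, and every group shared that line. The 6 control libraries are titled plko, the name of a lentiviral hairpin vector, and whether that vector carried a hairpin is not given in the sources used here. The other libraries came from cells with a short hairpin RNA against Rnf185, with 6 for shRNF185.1 and 6 for shRNF185.3. Numbers 1 and 2 of each group form batch 1 in the labels, numbers 3 and 4 batch 2, and numbers 5 and 6 batch 3. Polyadenylated RNA was sequenced for each library, and the question of the series is how knockdown of this ubiquitin ligase alters expression in cells whose migration it studied. The labels do not say whether the libraries of a group came from separate cultures, so p-values measure the spread between these libraries, which may be technical.

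Guidance molecules were first described as cues that steer growing axons, and they are used by many migrating cells outside the nervous system. Semaphorins bind plexins, and most secreted class 3 semaphorins need a neuropilin as co-receptor, after which the plexin acts on small GTPases and the cell edge can collapse. Ephrins sit on one cell and Eph receptor kinases on its neighbour, so that contact sends a signal into both, and in epithelia this sorts cells and sets borders. Slits are secreted ligands of Robo receptors, and netrins act through Unc5 and DCC-type receptors, with netrin-4 also binding laminins of the basement membrane.

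Libraries held 22027395 to 43379662 counts each. Rnf185 itself was at 33.6 to 38.4 CPM in control, 5.21 to 6.80 CPM with shRNF185.1 and 5.19 to 6.72 CPM with shRNF185.3. No library thus went against its label as control or knockdown. Being equally low with both hairpins, Rnf185 cannot check which hairpin a library had. Of the 11 prostate epithelial markers examined, 7 were in the CPM table, Hoxb13, Krt8 and Krt18 among them, while Epcam, Krt5 and Pbsn had 0 to 43 counts summed over all 18 libraries. The summed level of those 7 markers was 1565 to 1886 CPM in control, 1021 to 1311 CPM with shRNF185.1 and 1078 to 1164 CPM with shRNF185.3, with 2 markers called higher and 4 lower for the mean of both hairpins. All 6 fibroblast and mesenchyme markers were in the table, at a summed 3087 to 4095, 3691 to 4272 and 3842 to 4474 CPM, with 4 called higher and 1 lower. Most markers of other cells were near 0. Cdh5, Tek, Tie1, Emcn and Erg of endothelium had at most 8 counts in all libraries together, and Ptprc, Adgre1, Cd3e and Itgam of leukocytes at most 13. The endothelial markers Pecam1 and Kdr had 94 and 101 counts and were not tested. The macrophage marker Cd68, which other cells also express, was at 3.65 ± 1.19 CPM in control and 2.26 and 2.62 CPM with the hairpins, and was called lower (log2 -0.58 for the mean of both, edgeR adjusted p 0.0107). Tubb3, a tubulin found in neurons and in many cell lines, led the 3 neuronal markers in the table, whose sum was 78.1 to 110 CPM in control, 122 to 146 CPM with shRNF185.1 and 104 to 134 CPM with shRNF185.3. Rbfox3, Snap25, Elavl3, Elavl4 and Stmn2 had 0 to 73 counts. These shifts in marker levels ran beside every comparison with control below, and their part in the results was not tested. In such bulk libraries, fewer cells with a transcript and less of it in each cell cannot be told apart.

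To show what lies at the start of the genes that moved, the 250 bases before the RefSeq start (GRCm38.p6) are given for 3 members called higher and 3 called lower. They are those with the highest and the lowest fold changes for the mean of both hairpins against control among members whose RefSeq start is also the GENCODE M21 start, which leaves out Sema3c, Sema4d and Plxnb1. Capitals mark the GC box, GGGCGG, and the TEAD-type element, CATTCC, on either strand, so a reverse complement is in capitals too. Sema4a is at chr3:88461183-88461432, Plxnd1 at chr6:115995006-115995255, Epha1 at chr6:42373269-42373518, Epha4 at chr1:77515089-77515338 and Robo2 at chr16:74411826-74412075, all on the minus strand, and Efna2 is at chr10:80179232-80179481 on the plus strand.
Sema4a: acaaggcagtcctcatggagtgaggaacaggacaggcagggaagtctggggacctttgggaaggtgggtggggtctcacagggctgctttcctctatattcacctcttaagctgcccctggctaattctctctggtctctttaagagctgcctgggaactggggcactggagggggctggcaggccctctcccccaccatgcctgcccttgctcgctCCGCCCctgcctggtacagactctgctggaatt
Plxnd1: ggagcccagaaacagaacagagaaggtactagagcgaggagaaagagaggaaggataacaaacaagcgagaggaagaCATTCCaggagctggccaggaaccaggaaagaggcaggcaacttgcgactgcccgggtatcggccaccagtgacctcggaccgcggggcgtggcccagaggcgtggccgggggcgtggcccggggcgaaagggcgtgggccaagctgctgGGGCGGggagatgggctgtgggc
Epha1: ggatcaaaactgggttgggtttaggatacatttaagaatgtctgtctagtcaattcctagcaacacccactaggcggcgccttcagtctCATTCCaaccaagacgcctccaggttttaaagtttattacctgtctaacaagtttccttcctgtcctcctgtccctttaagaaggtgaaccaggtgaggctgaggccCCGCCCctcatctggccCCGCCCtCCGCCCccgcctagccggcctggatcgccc
Epha4: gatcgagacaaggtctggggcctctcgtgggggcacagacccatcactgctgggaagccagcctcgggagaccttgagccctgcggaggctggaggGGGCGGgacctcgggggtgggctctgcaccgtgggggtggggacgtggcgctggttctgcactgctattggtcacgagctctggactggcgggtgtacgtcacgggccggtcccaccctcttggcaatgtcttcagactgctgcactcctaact
Efna2: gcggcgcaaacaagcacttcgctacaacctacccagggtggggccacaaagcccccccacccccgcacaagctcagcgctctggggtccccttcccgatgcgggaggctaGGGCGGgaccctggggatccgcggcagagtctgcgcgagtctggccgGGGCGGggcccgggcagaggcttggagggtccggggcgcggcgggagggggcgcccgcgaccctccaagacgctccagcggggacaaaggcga
Robo2: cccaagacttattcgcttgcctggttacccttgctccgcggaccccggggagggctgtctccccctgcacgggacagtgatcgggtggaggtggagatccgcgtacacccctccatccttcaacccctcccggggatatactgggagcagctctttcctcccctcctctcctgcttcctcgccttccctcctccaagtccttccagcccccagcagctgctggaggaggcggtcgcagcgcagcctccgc

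Sema4a, Plxnd1 and Epha1 were higher and the others lower. The GC box was found 1 to 3 times in each window but that of Robo2, which held 0. Over the 42 of 48 tested members with a RefSeq window it was present in 34 (81.0%), against 32.7% of all 32851 windows of 250 bases. The 32851 windows were not limited to the 14309 tested genes, so this share and those below compare unlike sets of genes. Member windows were also richer in G and C, at a median of 65.2% and 16 CpG, against 52.4% and 6 over all windows, and the GC box is itself made of these bases. CATTCC occurred in the Plxnd1 and Epha1 windows and in 5 member windows in all (11.9%), against 12.6% of all windows. The other 3 were those of Plxnb1 and Efnb2, which fell, and of Epha2, which rose. The AP-1 element TGANTCA was found in 1 member window, that of Sema4c, against 6.75% of all windows. A match is a run of letters and was not tested as a binding site.

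The control cells expressed both receptor and ligand genes at high levels, with a receptor gene highest. Levels between genes are compared as CPM per kilobase of exonic length. Plxnb2, a plexin of epithelial cells, was highest at 88.3, followed by the netrin receptor gene Unc5b at 36.0, Plxna1 at 28.6, Sema3c at 23.9, Epha2 at 23.8, Nrp2 at 23.4 and Ephb4 at 20.3. Among ligands, Efna1 stood at 19.8, Ntn1 at 15.2, Ntn4 at 11.8, Efnb2 at 10.9, Sema3f at 10.6 and Sema4b at 10.2. Robo receptors were low, with Robo1 at 0.0797 and Robo2 at 0.0399, while their ligand gene Slit2 was at 1.60. Plxnc1, Slit1 and Epha3 were at 0.0260 or less and were not tested.

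The table of CPM held genes with at least 90 counts summed over the 18 libraries. Plxnc1 was the member just inside this limit, with 100 counts, and Sema5b lay just outside it, with 67. The other family genes below the limit were Plxnb3 with 58 counts, Slit3 with 46, Sema6a with 29, Unc5a with 27, Epha8 with 23 and Sema4f with 22. Epha5, Epha6, Epha10, Ephb1, Ephb2, Ntn5, Robo3, Robo4 and Unc5d had 0 to 7 counts. The netrin receptor gene Dcc, which the rule does not include, had 6.

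**Figure D1:**
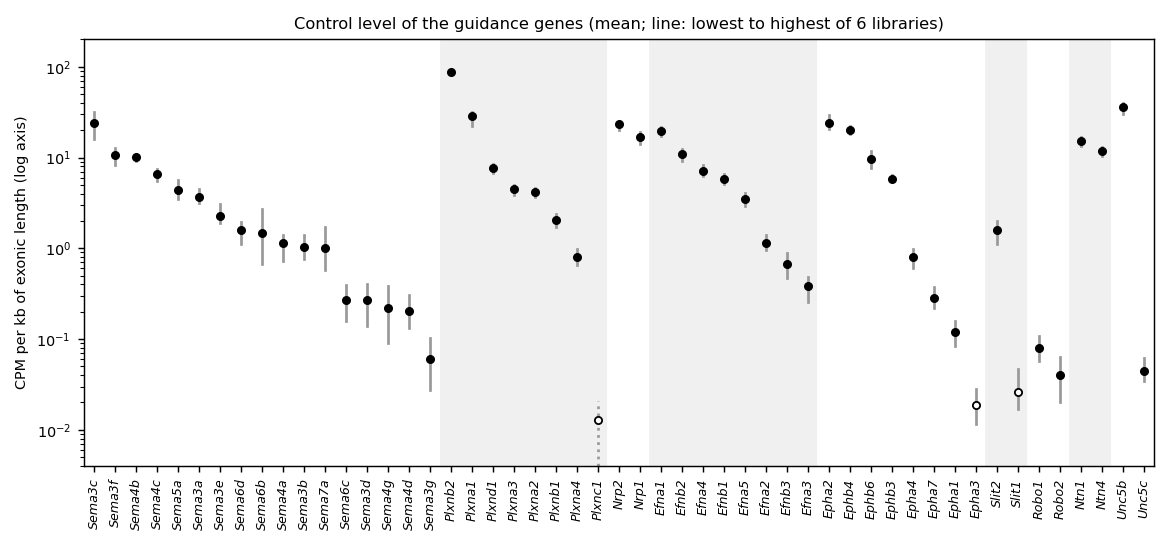
Mean level of each of the 51 guidance genes in the 6 control libraries, in CPM per kilobase of exonic length on a log axis, grouped by family with shading for alternate families. Lines run from the lowest to the highest library, open circles are the 3 genes not tested, and a dotted line reaches a library at 0; Plxnb2 is highest at 88.3 and Plxnc1 lowest at 0.0128.

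Against control, guidance genes were called in both directions with the hairpins. For the mean of both hairpins against control, 9 of the 48 tested members were called higher and 14 lower at an adjusted p under 0.05, by edgeR's quasi-likelihood test with Benjamini-Hochberg adjustment over all 14309 genes. The same call was made for 32.9% of all tested genes, 16.1% higher and 16.8% lower. With shRNF185.1, 9 members were higher and 13 lower, against 14.6% and 14.3% of all genes. With shRNF185.3, 12 were higher and 10 lower, against 14.2% and 13.1%, and a correction for GC content and exonic length changed that split to 10 higher and 14 lower. The median log2 fold change of the 48 members was -0.05 for the mean of both hairpins, -0.15 with shRNF185.1 and 0.04 with shRNF185.3, beside -0.02 over all genes in each case. These medians depended on the batches: without batch 2 they were 0.01 for the mean and -0.01 with shRNF185.1, and without batch 3 that with shRNF185.3 was -0.04. With libraries summed, over all 51 members, the median for the mean was 0.02. Both hairpins were compared with the same 6 control libraries, so their values are given side by side and are not independent. A change of 0.5 or more on the log2 scale, in either direction, was reached by 13 called members for the mean of both hairpins (9.91% of all genes), by 11 with shRNF185.1 (10.4%) and by 11 with shRNF185.3 (10.2%). Slit2 lay just inside that size, at 0.50, and Efnb3 just outside it, at -0.47.

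**Figure D2:**
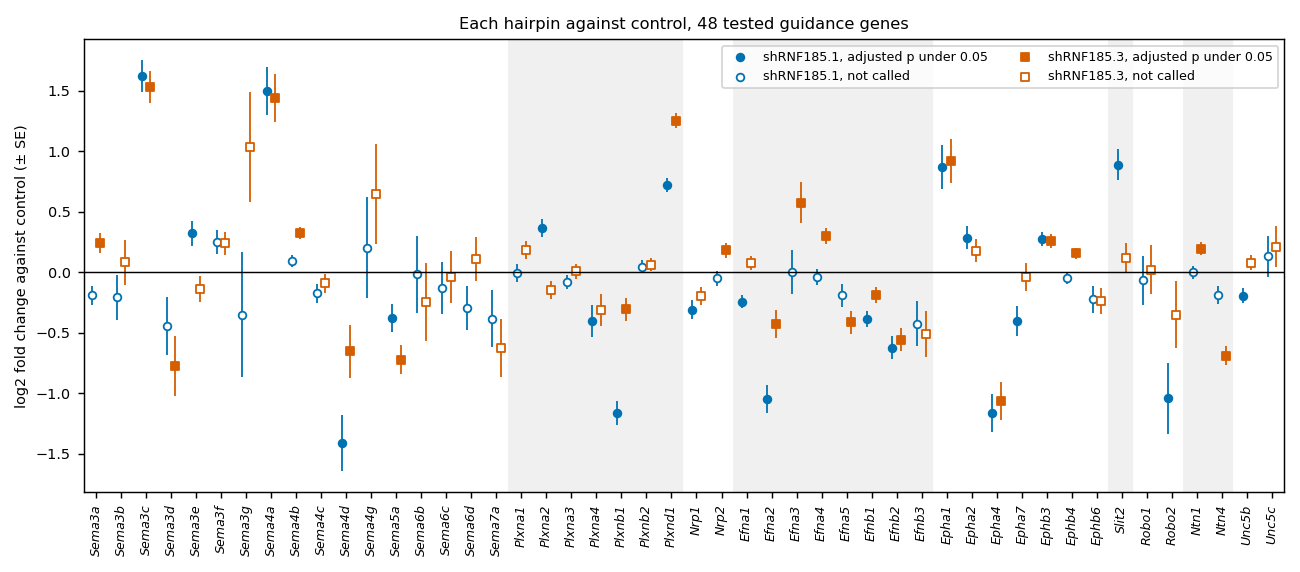
Log2 fold change (± SE) of each hairpin against control for the 48 tested guidance genes, ordered by family (semaphorins, plexins, neuropilins, ephrins, Eph receptors, Slit2, Robo receptors, netrins, Unc5 receptors), with filled symbols for adjusted p under 0.05. Sema3c and Sema4a lie near 1.5 with both hairpins, Epha4 lies at -1.16 and -1.06, and Slit2 is raised with shRNF185.1 only by that call.

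Semaphorins held the members that rose most. Of 17 tested, 4 rose and 3 fell for the mean of both hairpins, near the shares of 16.1% and 16.8% over all genes. Sema3c, a secreted semaphorin that signals through neuropilins with Plxnd1 or A-type plexins, ran from 114 to 226 CPM in control (median 174), from 452 to 586 CPM with shRNF185.1 (median 531) and from 402 to 606 CPM with shRNF185.3 (median 465). Control did not overlap with either hairpin, whose lowest library was well above 226 CPM. Its level was 3.07-fold that of control with shRNF185.1 (log2 1.62, SE 0.13, edgeR adjusted p 4.65e-08) and 2.89-fold with shRNF185.3 (log2 1.53, SE 0.13, adjusted p 1.16e-07). Within batches 1, 2 and 3 the log2 difference was 1.66, 2.02 and 1.23 for shRNF185.1, then 1.32, 2.15 and 1.13 for shRNF185.3.

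Sema4a, a membrane semaphorin known from immune cells, retina and epithelia, was much less abundant. It ran from 3.92 to 7.57 CPM in control (median 6.84), 12.2 to 25.02 CPM with shRNF185.1 (median 16.6) and 12.9 to 21.4 CPM with shRNF185.3 (median 15.9), without overlap between control and either hairpin. The log2 fold changes were 1.49 (SE 0.20, edgeR adjusted p 1.51e-05) and 1.44 (SE 0.20, adjusted p 2.4e-05). Control libraries of batch 3 were the lowest, and the differences in batches 1, 2 and 3 were 1.42, 0.81 and 2.28 for shRNF185.1, then 0.90, 1.36 and 2.09 for shRNF185.3. Sema3f, a neuropilin-2 ligand, and Sema4b rose by smaller amounts for the mean of both hairpins, with log2 fold changes of 0.24 (adjusted p 0.0335) and 0.21 (adjusted p 0.0014). The Sema3f call was lost under 5 of 13 alternatives, with adjusted p up to 0.413.

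Among the semaphorins that fell, Sema5a, a membrane semaphorin with thrombospondin repeats, was the most abundant. It ran from 65.9 to 106 CPM in control (median 81.0), 53.8 to 75.7 CPM with shRNF185.1 (median 62.3) and 41.8 to 59.5 CPM with shRNF185.3 (median 48.3). Every shRNF185.3 library lay below the lowest control library, and 4 of 6 did with shRNF185.1. The log2 fold changes were -0.37 (SE 0.12, edgeR adjusted p 0.0203) and -0.72 (SE 0.12, adjusted p 0.000137), and the first was lost without batch 1 or batch 2 (adjusted p up to 0.140).

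Sema4d, the ligand of plexin-B1, was low in all groups. It ran from 1.03 to 2.355 CPM in control (median 1.39), 0.368 to 0.849 CPM with shRNF185.1 (median 0.577) and 0.777 to 1.205 CPM with shRNF185.3 (median 1.01), on 9 to 61 counts per library. All 6 shRNF185.1 libraries and 3 of the shRNF185.3 libraries lay below the lowest control. The log2 fold change was -1.41 with shRNF185.1 (SE 0.23, edgeR adjusted p 0.000151). With shRNF185.3 it was -0.65 (SE 0.22, adjusted p 0.0341), a call lost under 6 of 12 alternatives (adjusted p up to 0.217).

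Sema3d, another class 3 ligand, ran from 1.19 to 3.47 CPM in control (median 2.27), 0.931 to 2.51 CPM with shRNF185.1 (median 1.63) and 0.930 to 1.87 CPM with shRNF185.3 (median 1.299). The groups overlapped, with 1 library of each hairpin below the lowest control. Its log2 fold change for the mean of both hairpins was -0.61 (SE 0.21, edgeR adjusted p 0.0284), and the call was lost without batch 1 or batch 2 (adjusted p up to 0.273). With shRNF185.3 it was -0.77 (adjusted p 0.0244), a call lost without the same batches (adjusted p up to 0.241). With shRNF185.1 it was -0.44 and not called (adjusted p 0.179), and the value within batch 3 was 0.22. The other 10 tested semaphorins, from Sema3a to Sema7a, were not called for the mean of both hairpins and ranged in control from 0.271 CPM for Sema3g to 51.3 CPM for Sema3a. Sema3a was called higher with shRNF185.3 (log2 0.24, adjusted p 0.0321) and Sema3e, at 20.96 CPM in control, with shRNF185.1 (0.32, adjusted p 0.0263). These calls were lost under 5 and 3 of 13 alternatives. Sema4c (30.1 CPM), Sema6d (16.9), Sema6b (5.92), Sema3b (4.995), Sema7a (3.34), Sema4g (1.89), Sema6c (1.601) and Sema3g were called in none of the 4 comparisons.

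Sema3c, Sema3e, Sema3a and Sema3d lie on the plus strand of chromosome 5, between 12383385 and 17730268 in GRCm38. They did not move alike: the log2 fold changes for the mean of both hairpins were 1.57 for Sema3c, 0.09 for Sema3e, 0.03 for Sema3a and -0.61 for Sema3d. Hgf, the nearest tested gene on the Sema3d side of Sema3c, changed by 0.13 (edgeR adjusted p 0.591). None of the 5 other tested genes in this 5347 kb span was called in that comparison.

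Plexins and neuropilins split between a rise, falls and no call. Plxnd1, the receptor of Sema3e and a partner of neuropilins for Sema3c, rose with both hairpins. It ran from 49.6 to 61.3 CPM in control (median 56.8), 90.5 to 102 CPM with shRNF185.1 (median 91.8) and 117 to 146 CPM with shRNF185.3 (median 136). The 3 groups did not overlap at all, and shRNF185.3 was the highest. The log2 fold changes were 0.72 (SE 0.06, edgeR adjusted p 6.36e-08) and 1.25 (SE 0.06, adjusted p 6.98e-11), and those within batches 1, 2 and 3 were 0.72, 0.58 and 0.87 for shRNF185.1, then 1.27, 1.097 and 1.38 for shRNF185.3.

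Plxnb1, which encodes the receptor of the Sema4d product, fell. It ran from 16.6 to 22.8 CPM in control (median 20.01), 7.75 to 10.1 CPM with shRNF185.1 (median 8.64) and 13.7 to 18.8 CPM with shRNF185.3 (median 15.0). All 6 shRNF185.1 libraries were below every control and every shRNF185.3 library, while 4 of the 6 shRNF185.3 libraries were below the lowest control. The level was 2.23-fold lower with shRNF185.1 (log2 -1.16, SE 0.10, edgeR adjusted p 7.63e-08). With shRNF185.3 it was 1.24-fold lower (log2 -0.31, SE 0.10, adjusted p 0.0231), a call lost without batch 1, without batch 2 and with the libraries of a group and batch summed (adjusted p up to 0.277).

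Plxna2, a receptor for class 3 and class 6 semaphorins, was called higher with shRNF185.1. It ran from 62.7 to 80.2 CPM in control (median 72.4), 72.3 to 100 CPM with shRNF185.1 (median 96.2) and 59.6 to 70.4 CPM with shRNF185.3 (median 66.1). With shRNF185.1 5 of 6 libraries lay above the highest control, for a log2 fold change of 0.36 (SE 0.07, edgeR adjusted p 0.000938), while with shRNF185.3 it was -0.15 (SE 0.07, adjusted p 0.144). With the GC content and exonic length offset the value for Plxna2, shRNF185.3 against control, was called lower, at -0.19 (adjusted p 0.0287), and with that offset and the replicate block together it was also -0.19 (adjusted p 0.0400). Plxna4 fell for the mean of both hairpins by 0.36 on the log2 scale (SE 0.11, adjusted p 0.0195), from 11.3 ± 1.79 CPM to 8.58 ± 1.42 and 9.12 ± 1.47 CPM (SD, n = 6 each). Leaving out batch 1 or 2, or summing libraries, lost that call (adjusted p up to 0.301). The most abundant plexins were not called: Plxnb2 was at 682 ± 30.0, 704 ± 36.2 and 711 ± 52.8 CPM in control, shRNF185.1 and shRNF185.3, and Plxna1 at 259 ± 29.6, 257 ± 26.3 and 293 ± 12.7 CPM. Plxna3 was not called either, at 35.5 ± 3.11, 33.6 ± 2.57 and 35.7 ± 1.44 CPM.

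Both neuropilins, co-receptors of class 3 semaphorins, were abundant and changed little. Nrp1 fell for the mean of both hairpins, from 163 ± 18.7 CPM to 132 ± 8.89 and 142 ± 12.7 CPM (log2 -0.25, SE 0.06, edgeR adjusted p 0.00538), a call lost without batch 3 (adjusted p 0.161). Nrp2 was at 278 ± 25.7, 268 ± 19.3 and 314 ± 15.6 CPM and was not called for the mean (adjusted p 0.363). With shRNF185.3 it was called higher (log2 0.18, adjusted p 0.0328), a call lost under 8 of 13 alternatives (adjusted p up to 0.368).

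Among the 8 ephrin genes, 5 were called lower for the mean of both hairpins and none higher, against 16.8% and 16.1% of all genes. Efna2 and Efnb2 met the size of 0.5, and Efna5, Efnb1 and Efnb3 lay under it. Efnb2, a transmembrane ephrin that binds EphB4 and EphA4, ran from 63.2 to 84.8 CPM in control (median 75.7), 40.5 to 56.6 CPM with shRNF185.1 (median 48.7) and 43.1 to 54.6 CPM with shRNF185.3 (median 52.4). No hairpin library reached the lowest control library. The log2 fold changes were -0.62 (SE 0.09, edgeR adjusted p 6.64e-05) and -0.56 (SE 0.09, adjusted p 0.000217), and within batches 1, 2 and 3 they were -0.37, -0.95 and -0.57 for shRNF185.1, then -0.62, -0.59 and -0.46 for shRNF185.3.

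Efna2, a ligand anchored by a lipid, ran from 2.04 to 2.99 CPM in control (median 2.36), 1.09 to 1.31 CPM with shRNF185.1 (median 1.19) and 1.51 to 2.13 CPM with shRNF185.3 (median 1.80). The shRNF185.1 libraries lay below all others, and 5 of 6 shRNF185.3 libraries lay below the lowest control. The log2 fold changes were -1.04 (SE 0.12, edgeR adjusted p 2.11e-06) and -0.43 (SE 0.11, adjusted p 0.00808), the second lost without batch 1 (adjusted p 0.150). Efnb1 fell from 19.8 ± 1.67 CPM to 15.2 ± 0.824 and 17.4 ± 1.56 CPM (SD, n = 6 each; log2 -0.29 for the mean, adjusted p 0.000766). With shRNF185.1 Efnb1 changed by -0.39 (edgeR adjusted p 0.000234) and with shRNF185.3 by -0.19 (adjusted p 0.0442). The call with shRNF185.3 was lost under several alternatives, among them each removal of a batch (adjusted p up to 0.344). Efna5 fell from 14.1 ± 2.06 CPM to 12.4 ± 1.06 and 10.6 ± 1.01 CPM (log2 -0.30, adjusted p 0.00676), a call lost without batch 1 and without batch 3 (adjusted p up to 0.0893). The Efnb3 call (log2 -0.47, adjusted p 0.0315) was lost under 6 of 12 alternatives, with adjusted p up to 0.536.

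Of 7 tested Eph receptor genes 3 were called higher and 1 lower for the mean of both hairpins, beside 16.1% and 16.8% of all genes. Epha4, a receptor that binds ephrins of both classes, ran from 4.83 to 7.92 CPM in control (median 6.49), 2.21 to 3.82 CPM with shRNF185.1 (median 2.92) and 2.43 to 4.21 CPM with shRNF185.3 (median 2.83). All hairpin libraries lay below the lowest control. The level was 2.24-fold lower with shRNF185.1 (log2 -1.16, SE 0.16, edgeR adjusted p 1.93e-05) and 2.09-fold lower with shRNF185.3 (log2 -1.06, SE 0.16, adjusted p 5.07e-05). The decrease was seen in each batch, at -1.33, -0.97 and -1.19 with shRNF185.1 and at -1.07, -0.67 and -1.50 with shRNF185.3.

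Ephb3, a receptor of B-type ephrins, rose from 38.9 ± 2.48 CPM to 47.1 ± 1.98 and 46.4 ± 4.34 CPM (SD, n = 6 each; log2 0.27 for the mean, SE 0.05, edgeR adjusted p 0.000591). Epha2, the most abundant Eph receptor gene, was at 111 ± 18.3, 136 ± 15.5 and 126 ± 8.26 CPM (log2 0.23, SE 0.08, adjusted p 0.0331). Its call was lost under 7 of 13 alternatives, with adjusted p up to 0.392. Epha7 was called lower with shRNF185.1 and not with shRNF185.3, at 2.82 ± 0.522, 2.12 ± 0.272 and 2.73 ± 0.189 CPM (log2 -0.40, adjusted p 0.0163), a call lost under 3 of 13 alternatives (adjusted p up to 0.245). Ephb4 was called higher with shRNF185.3 and not with shRNF185.1, at 94.2 ± 7.45, 91.1 ± 3.70 and 105 ± 3.62 CPM (log2 0.16, adjusted p 0.0239), a call lost under 5 of 13 (adjusted p up to 0.269). Ephb6, whose product lacks kinase activity, was not called, at 36.6 ± 6.46, 31.3 ± 3.96 and 31.0 ± 3.32 CPM.

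Epha1 was called higher at a low level. It ran from 0.330 to 0.628 CPM in control (median 0.442), 0.761 to 1.00 CPM with shRNF185.1 (median 0.835) and 0.623 to 1.14 CPM with shRNF185.3 (median 0.903), on 8 to 33 counts per library. All 6 shRNF185.1 libraries and 5 of 6 shRNF185.3 libraries lay above the highest control, and the log2 fold changes were 0.87 (SE 0.18, edgeR adjusted p 0.00123) and 0.92 (SE 0.18, adjusted p 0.000791). Without batch 1 the second was no longer called (adjusted p 0.0544), and within batches 1, 2 and 3 it was 1.25, 1.35 and 0.18. Its exons overlap those of Zyx on the opposite strand over 236 bases (6.01% of its exonic length). Zyx stood at 217 ± 24.3 CPM in control and 271 ± 13.2 and 278 ± 5.95 CPM with the hairpins (log2 0.34 for the mean, adjusted p 7e-05). The libraries are strand-specific per the labels, whether counting used the strand is not given in the sources used here, and the part of Zyx reads in the Epha1 value was not tested.

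Slit2, a secreted ligand of Robo receptors, rose with shRNF185.1. It ran from 28.1 to 50.8 CPM in control (median 40.3), 65.4 to 93.3 CPM with shRNF185.1 (median 72.6) and 38.9 to 57.0 CPM with shRNF185.3 (median 42.7). The shRNF185.1 libraries lay above all others, while 5 of 6 shRNF185.3 libraries lay within the control range. The log2 fold change was 0.89 with shRNF185.1 (SE 0.13, edgeR adjusted p 2.96e-05) and 0.12 with shRNF185.3 (SE 0.13, adjusted p 0.531). Its value for the mean of both hairpins, 0.50, averages these.

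Robo2, a Slit receptor, was near the limit of detection, with 5 to 31 counts per library. It ran from 0.345 to 1.07 CPM in control (median 0.658), 0.177 to 0.437 CPM with shRNF185.1 (median 0.339) and 0.322 to 0.789 CPM with shRNF185.3 (median 0.501), and the groups overlapped. For scale, 3 counts correspond to 0.0692 to 0.136 CPM, a figure for counting error only. The log2 fold change for the mean of both hairpins was -0.69 (SE 0.24, edgeR adjusted p 0.0320), and the call was lost under 7 of 12 alternatives (adjusted p up to 0.479), the replicate block among them (-0.69, adjusted p 0.0713). With shRNF185.1 it was -1.04 (adjusted p 0.0111), a call lost without batch 1, without batch 2 and with libraries summed (adjusted p up to 0.159). With shRNF185.3 it was -0.35 and not called (adjusted p 0.373). Robo1 was not called, at 1.32 ± 0.330, 1.24 ± 0.335 and 1.33 ± 0.297 CPM.

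Netrin genes differed from each other. Ntn4 fell for the mean of both hairpins (log2 -0.44, SE 0.06, edgeR adjusted p 3.29e-05). It ran from 39.2 to 49.1 CPM in control (median 43.9), 34.8 to 42.8 CPM with shRNF185.1 (median 39.8) and 23.0 to 30.7 CPM with shRNF185.3 (median 27.4), so the shRNF185.3 libraries lay below all others. The call came with shRNF185.3 (-0.69, adjusted p 1.8e-06), while shRNF185.1 gave -0.19 and no call (adjusted p 0.0607). Ntn1, the founding netrin, was at 95.4 ± 7.59, 95.3 ± 5.002 and 109 ± 6.13 CPM and was not called for the mean (adjusted p 0.125). With shRNF185.3 Ntn1 was called higher (log2 0.19, edgeR adjusted p 0.0113), a call lost under some alternatives (adjusted p up to 0.0893). Unc5b, its abundant receptor gene, was at 225 ± 21.2, 197 ± 11.4 and 238 ± 16.6 CPM and was not called for the mean (adjusted p 0.452). With shRNF185.1 Unc5b was called lower (log2 -0.19, edgeR adjusted p 0.0269), a call also lost under some alternatives (adjusted p up to 0.199). Unc5c was at 0.854 ± 0.200, 0.931 ± 0.141 and 0.986 ± 0.181 CPM and was not called.

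**Figure D3:**
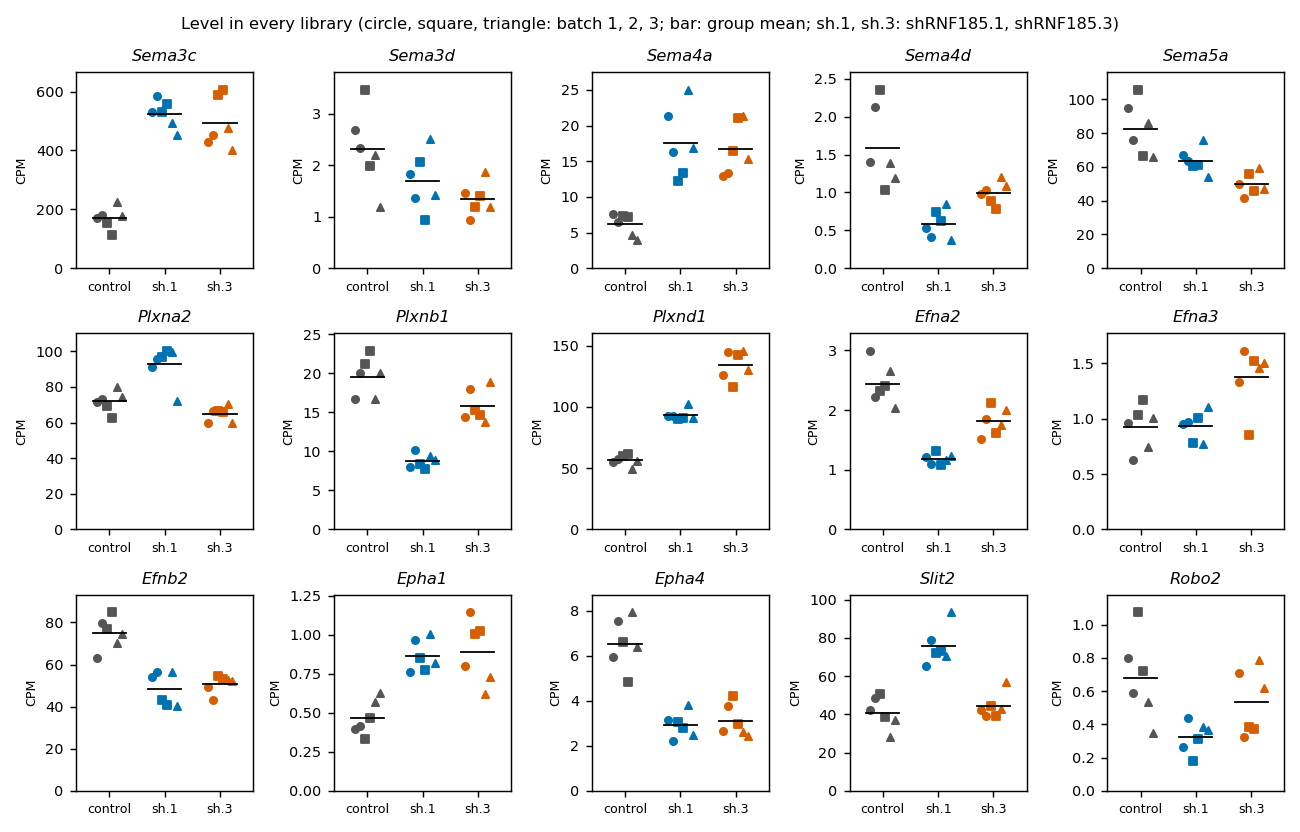
CPM in each of the 18 libraries for the 15 members with a called log2 difference of at least 0.5, for the mean of both hairpins against control or between the hairpins; each panel starts at 0, symbols mark batches 1 to 3 and bars are group means of 6 libraries. Sema3c, Sema4a, Plxnd1, Efnb2 and Epha4 show no overlap between control and either hairpin, Slit2 stands out with shRNF185.1, and Robo2 and Sema3d overlap between groups.

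The hairpins were then set against each other, since Rnf185 itself was equally low with both (edgeR adjusted p 0.997 for their difference). Of the 48 members 17 differed, 13 of them higher and 4 lower with shRNF185.3, beside 7.72% and 6.94% of all genes tested. Differences of 0.5 or more were seen for 7 of them, against 4.69% of all genes. The median log2 difference was 0.09 over the members and -0.00 over all genes. Plxnb1 differed most among those called, by 0.85 (SE 0.10, adjusted p 7.45e-06), and the difference within batches 1, 2 and 3 was 0.83, 0.89 and 0.83. Slit2 differed by -0.77 (SE 0.13, adjusted p 0.000276), with -0.83, -0.80 and -0.71 by batch. Plxnd1 differed by 0.53 (SE 0.06, adjusted p 5.76e-06) and Plxna2 by -0.51 (SE 0.07, adjusted p 8.18e-05). The libraries of the hairpins did not overlap for Plxnb1, Slit2, Plxnd1, Plxna2, Ntn4, Sema3a, Sema4b, Ephb4, Efna1, Efna2 and Efna4. The share of all tested genes without such overlap was not counted, so this list describes the single genes only. Ntn4 was lower with shRNF185.3 by 0.50 (adjusted p 0.000147) and Sema3e, the direct ligand of plexin-D1, by 0.46 (adjusted p 0.00543, or 0.142 without batch 1). Sema3a was higher by 0.43 (adjusted p 0.00109). Sema4d was higher by 0.76 (SE 0.24, adjusted p 0.0412), a call lost under 4 of 12 alternatives (adjusted p up to 0.352).

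Smaller differences, all higher with shRNF185.3, were 0.27 for Unc5b, 0.23 for Nrp2, 0.23 for Sema4b, 0.20 for Ephb4 and 0.20 for Ntn1, with edgeR adjusted p of 0.00408 to 0.0185. Calls for Unc5b, Ephb4, Nrp2, Sema4b and Efna4 were lost without batch 1, with adjusted p of 0.0519 to 0.180, and that for Ntn1 was lost without batch 2, without batch 3 and with no filter on low counts (adjusted p up to 0.175). Nrp2 also lost its call without batch 3 and with libraries summed, and Sema4b without batch 3.

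Of the 8 ephrin genes, Efna1, Efna2, Efna3 and Efna4 were called higher with shRNF185.3 than with shRNF185.1 and 0 lower, beside 7.72% and 6.94% of all genes. Efna1, Efna3 and Efna4 are neighbours on the minus strand of chromosome 3, from 89271733 to 89338028 in GRCm38, and differed by 0.32 (edgeR adjusted p 0.000577), 0.57 (adjusted p 0.0306) and 0.34 (adjusted p 0.00186). Efna2 lies on chromosome 10 and differed by 0.62 (adjusted p 0.00135). Efna1 was at 36.3 ± 3.25 CPM in control, 30.7 ± 1.33 with shRNF185.1 and 38.2 ± 1.86 with shRNF185.3, and Efna4 at 11.2 ± 1.14, 10.96 ± 0.565 and 13.8 ± 0.847 CPM. Against control, Efna1 was called only with shRNF185.1, where it was lower (log2 -0.24, edgeR adjusted p 0.00267). Efna4 (0.30, adjusted p 0.00261) and Efna3 (0.57, adjusted p 0.0171) were called only with shRNF185.3, where they were higher. Each of these calls was lost without batch 1. Those for Efna4 and Efna3 were also lost without batch 3, and that for Efna3 with no filter on low counts (edgeR adjusted p up to 0.233 for Efna3). Efna3 ran from 0.626 to 1.17 CPM in control (median 0.984), 0.772 to 1.104 CPM with shRNF185.1 (median 0.959) and 0.850 to 1.61 CPM with shRNF185.3 (median 1.48). Of 6 shRNF185.3 libraries 5 lay above all libraries of the other groups for Efna3. Its call between the hairpins was lost under 5 of 12 alternatives, among them each removal of a batch (adjusted p up to 0.221). The antisense gene Gm15998 overlaps 14.1% of Efna3's exonic length and stood at 0.247 ± 0.0627, 0.252 ± 0.115 and 0.301 ± 0.0719 CPM, and its part in the Efna3 value was not tested. Of 11 other tested genes within 50 kb of this cluster, Thbs3, Trim46 and Adam15 were also higher with shRNF185.3, by 0.96, 0.46 and 0.24, and 0 were lower.

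**Figure D4:**
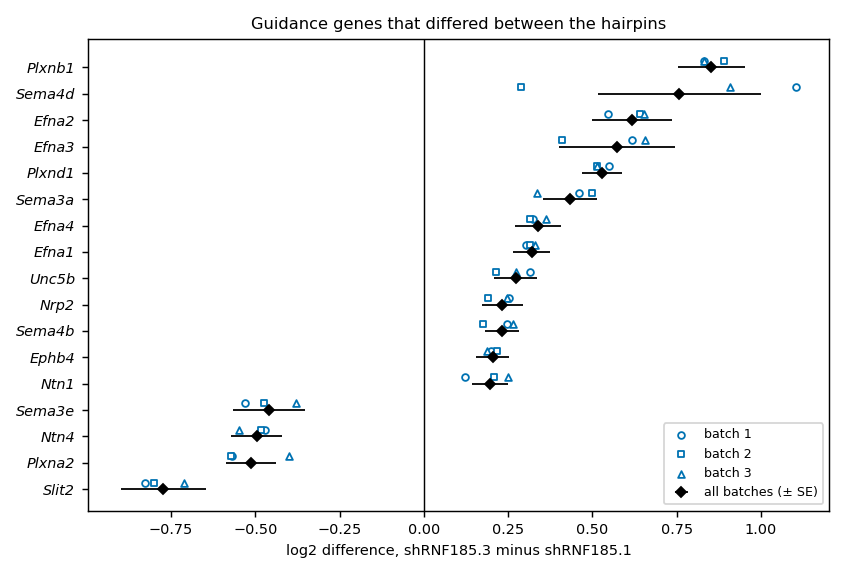
Log2 difference between shRNF185.3 and shRNF185.1 for the 17 guidance genes called in that comparison; black diamonds are the value over all libraries (± SE) and open symbols the differences of mean CPM within batches 1, 2 and 3. Every within-batch value has the sign of the value over all libraries, from 0.85 for Plxnb1 to -0.77 for Slit2.

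Genes that act with or below these receptors were read from a list of 64 partners, effectors and proteases, chosen by known role. Of these 58 were in the CPM table and 55 were tested, with 13 called higher and 7 lower for the mean of both hairpins, against 16.1% and 16.8% of all genes. The median log2 fold change was 0.04, beside -0.02 over all genes. The highest among them were Flrt1 (1.73, from 0.673 ± 0.137 to 2.07 and 2.39 CPM), an Unc5-binding membrane protein, and Mical1 (1.07, from 0.887 ± 0.237 to 2.09 and 1.66 CPM), an actin oxidase downstream of plexins. Rgma, a ligand of the netrin receptor neogenin, rose by 0.79, from 7.50 ± 1.58 CPM to 12.9 and 13.2 CPM, and Chn1, a Rac inhibitor that acts below EphA4, by 0.69, from 0.745 ± 0.158 CPM to 1.08 and 1.34 CPM. The lowest were Chn2 at -0.76, Ntng2 at -0.70, Vav3 at -0.58 and Srgap1 at -0.54. Ntng2 had 10 to 75 counts per library and was not called with shRNF185.3 (edgeR adjusted p 0.0582). Its values within batches ran from -1.62 to 0.13 with shRNF185.1. Srgap1, a GTPase regulator that binds Robo, went from 5.28 ± 0.875 CPM to 3.45 and 3.80 CPM, and Vav3, a guanine nucleotide exchange factor recruited by Eph receptors, from 29.1 ± 6.54 CPM to 21.6 and 17.5 CPM. Neo1, the neogenin gene itself, was not called.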

How the data were processed

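RNA from 18 libraries of MPC3 cells was measured by single-end sequencing of polyadenylated RNA, per the labels' protocols. The deposited gene table holds expected counts adjusted with ComBat-Seq, a batch adjustment of counts, per the labels. Of its values, 0.466% were not whole, and these were rounded. Whether the adjustment was told the groups is not given in the sources used here. The submitters' processing notes name cutadapt 2.3, STAR 2.7.0d, RSEM 1.3.1 and the mm10 build, without roles. The authors' second deposited table holds a library-scaled signal in CPM for the 15386 genes with at least 90 counts in all.

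Genes were filtered with filterByExpr (minimum count 10), which left 14309. TMM factors and edgeR's quasi-likelihood test (edgeR 4.0.16, R 4.3.3) were fitted to all 18 libraries with group as the only term, and p-values were adjusted over all 14309 genes, with calls at 0.05. Library totals of 22027395 to 43379662 counts set the precision, and intervals were not used. Positions come from GENCODE M21 (GRCm38, the assembly of mm10), whose symbols matched 99.7% of tested genes, and promoters from RefSeq. Within-batch values are differences of log2 mean CPM. Values are given in full for members with a called log2 difference of at least 0.5, for the mean of both hairpins against control or between hairpins, and the other members by level and call, or as a group. Up to 4 of the highest and lowest called pathway genes are named. Ntn4 and the members under 0.5 that are described with levels were chosen after their values were seen, as were the promoter motifs. The members and lists were chosen with earlier results of these data known. Alternatives were DESeq2 1.42.0, limma-voom (limma 3.58.1), library size alone, no filter or a mean count of at least 50, batch or replicate number as a term, a GC content and exonic length offset, summed libraries, and each batch left out. A few marker genes are counted in their lists but not reported here by name.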

Additional observations from a re-analysis of the deposited data

Results flagged for a closer look

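Of 45 groups of 6 libraries checked for a library far from the rest, 4 had one, and chance gives about 1 in 20, or 2.25. The highest Slit2 value with shRNF185.3, replicate 6, was 57.0 CPM, with the next at 44.2 CPM. The lowest Efna3 value with shRNF185.3, replicate 3, was 0.850 CPM, with the next at 1.33 CPM. The lowest Plxna2 value with shRNF185.1, replicate 6, was 72.3 CPM, with the next at 91.3 CPM. The highest Plxnd1 value with shRNF185.1, replicate 5, was 102 CPM, with the next at 92.7 CPM.

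The effects of the hairpins against the same controls differed, by edgeR's test of shRNF185.3 against shRNF185.1, for 17 members. The log2 difference was 0.85 for Plxnb1, 0.76 for Sema4d, 0.62 for Efna2, 0.57 for Efna3, 0.53 for Plxnd1, 0.43 for Sema3a, 0.34 for Efna4 and 0.32 for Efna1. It was 0.27 for Unc5b, 0.23 for Nrp2, 0.23 for Sema4b, 0.20 for Ephb4 and 0.20 for Ntn1. It was negative for Slit2 (-0.77), Plxna2 (-0.51), Ntn4 (-0.50) and Sema3e (-0.46).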

How the results depend on the processing

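Over 84 called member results and 1080 recomputations, 949 kept direction and call, 131 lost the call and 0 reversed, and 43 results kept the call under every alternative. Leaving out batch 1 lost 35 calls, batch 2 lost 19 and batch 3 lost 18. Counts moved by over 1.5 times as follows, with fewer libraries in each fit. Without batch 1, 9 members were lower for the mean of both hairpins (14 with all libraries), 7 lower with shRNF185.1 (13), 6 higher and 5 lower with shRNF185.3 (12 and 10), and 6 higher with shRNF185.3 than shRNF185.1 (13). Without batch 2, 6 were lower with shRNF185.3. Without batch 3, 6 were higher with shRNF185.3 and 8 higher than with shRNF185.1. Differences that changed sign were not called in either fit. Without batch 1 these were Epha1 (-0.0151) and Sema3c (0.0308) and Sema4a (0.14) between hairpins, and Efna3 with shRNF185.1 (-0.12). Without batch 2 they were Epha1 (-0.10), Epha4 (-0.0166) and Efnb2 (-0.0752) between hairpins, and Robo2 with shRNF185.3 (0.0948). Without batch 3 they were Slit2 with shRNF185.3 (-0.12), Sema4a between hairpins (0.0201) and Efna3 with shRNF185.1 (-0.0428). The value of Efna3, shRNF185.1 against control, was also -0.00118 with DESeq2, -0.000755 with no filter and -0.000128 with summed libraries. The cause was not tested. Deviations from the group means of same-numbered libraries of different groups had a mean r of -0.0144 over 18 pairs (-0.628 to 0.705), against -0.434 for libraries of the same batch with other numbers. Same-numbered libraries were thus more alike on average than those, but less so than libraries of different groups and batches (mean r 0.111 over 72 pairs). Not every same-numbered pair was above 0.1 either, so the numbers were not taken to pair the libraries. With the replicate block 9 members were higher and 13 lower for the mean of both hairpins, 10 and 13 with shRNF185.1, 10 and 11 with shRNF185.3, and 14 and 5 between hairpins. Low counts limit Robo2, Epha1, Sema4d and Efna3, and among the pathway genes Flrt1, Mical1, Chn1 and Ntng2. The alternatives were read for the members only.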
